A study of Xenopus laevis with 6 samples.

Results

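The genes described here build, hold and remodel the extracellular matrix: collagens, laminin and nidogen, fibronectin and fibrillin, integrins, heparan sulfate proteoglycans, matrix proteases with their inhibitors, SPARC and the lysyl oxidases. The rule that picks them reads the gene symbol and no measured value, although it was written with earlier results of these data known. It took every probe set whose platform symbol begins like a collagen, laminin, integrin, fn1, fbn, nid1 or nid2, mmp, timp, adamts, gpc, sdc1, sdc2, sdc4, hspg2, sparc or lox gene. It found 124 probe sets of the 32634 on the array (0.380%). Of these, 120 carried 1 symbol and covered 78 of the array's 11302 gene symbols, and 4 carried 2 symbols each and were counted without being named. Xenopus laevis is an allotetraploid frog, and a symbol ending in .L or .S names the copy of a gene (its homeolog) on the long or short set of chromosomes. The members held 53 .L genes, 23 .S genes and 2 symbols without an ending.

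The arrays measured RNA from the dorsal part of gastrulae at stage 10.5, grown at 16 degrees C. Both groups received 10 ng of a morpholino (MO), an antisense oligonucleotide that keeps one RNA from being translated or spliced, in the 2 dorsal cells of the 4-cell embryo. The depleted group had the apcdd1 MO and the control group a control MO by its genotype label, with 3 batches of 10 embryos and 3 Affymetrix arrays per group. Apcdd1 is a membrane glycoprotein that restrains Wnt and BMP signals. The treatment text of the control samples names the apcdd1 MO, so samples were grouped by genotype. Depleted embryos alone were marked with dye on the ventral side since the dorsal lip of some was delayed, and neither the marking nor the delay can be told apart from the group. No strain or clutch is given, so the p-values reflect batch-to-batch spread only, which may be technical. The dorsal pieces hold several tissues, and fewer cells of a type and less RNA per cell cannot be told apart in them.

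As background, the gastrula moves its mesoderm inward across the inner face of the blastocoel roof, where cells assemble fibronectin into fibrils. Cells grip these fibrils through integrins, receptors made of one alpha and one beta subunit, and α5β1 is the main fibronectin receptor of the frog gastrula. Heparan sulfate proteoglycans of the cell surface, the glypicans and syndecans, bind growth factors and take part in the Wnt signalling that orients cells during convergent extension. Fibrillar collagens and their partners are best known from the notochord sheath, cartilage and connective tissue of later stages. Metalloproteinases cut matrix proteins, and TIMP proteins block them.

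The targeted gene and the tissue labels were examined first. The signals of apcdd1.L were 314, 300 and 310 on control arrays 1 to 3 and 229, 252 and 258 on depleted arrays 1 to 3, and the groups did not overlap (log2 change -0.33, adjusted p 0.027, limma with Benjamini-Hochberg adjustment). An MO need not lower the level of its target RNA, so this value does not measure the depletion. Array medians ran from 44.4 to 45.7. At the adjusted threshold in limma, 3.00% of all tested probe sets were higher and 3.61% lower. Of 18 tested dorsal marker genes, 5 were lower and 0 higher at that threshold (10 lower and 0 higher at an unadjusted p under 0.05). A test that used each gene's own variance alone called 0 of them, but it called far fewer probe sets of the whole array than limma did. The change was negative for 17 of the 18, with a median of -0.18. The summed signal of the dorsal markers was 23961 to 27392 in control and 21816 to 22635 in depleted arrays. The summed signal of the ventral markers was 4244 to 4583 in control and 4957 to 5203 in depleted arrays, and 3 of their 13 tested genes were higher (ventx2.1.L, ventx2.1.S and ventx1.2.S). The change was negative for 8 of these 13, with a median of -0.09, and a dimmer probe set of bmp4.S was lower (log2 change -0.72, limma adjusted p 0.0085). The epidermal markers summed to 9904 to 10141 and 10335 to 10390, with 3 of 10 higher (foxi1.L, grhl1.L and grhl3.L), 5 of 10 negative and a median change of 0.00. The endoderm markers summed to 15617 to 17059 and 15196 to 17715, with 1 of 16 lower. At an unadjusted p under 0.05 in limma, 4 ventral markers were higher and 1 lower. For epidermal markers 3 were higher and 1 lower, and for endoderm markers 2 higher and 3 lower. Own variance alone called 0 ventral, 1 epidermal and 0 endoderm markers. The part of these shifts in the results on matrix genes was not tested.

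Most of the matrix probe sets were dim in the gastrula. Only 39 of 124 (31.5%) lay above the filter on low signal, a mean signal of 22.3 over the 6 arrays, against 19484 of the 32474 probe sets of the array that are no controls. The 39 probe sets covered 26 genes, and 52 of the 78 genes had no probe set bright enough to be tested. The array carries 64 control probe sets for reporter genes, with a median signal of 7.02 and a 95th percentile of 15.4. Of the members, 77 (62.1%) lay under 15.4, against 34.5% of all probe sets. Signals of different probe sets depend on their own oligos, so they do not rank the genes by amount of RNA.

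**Figure D1:**
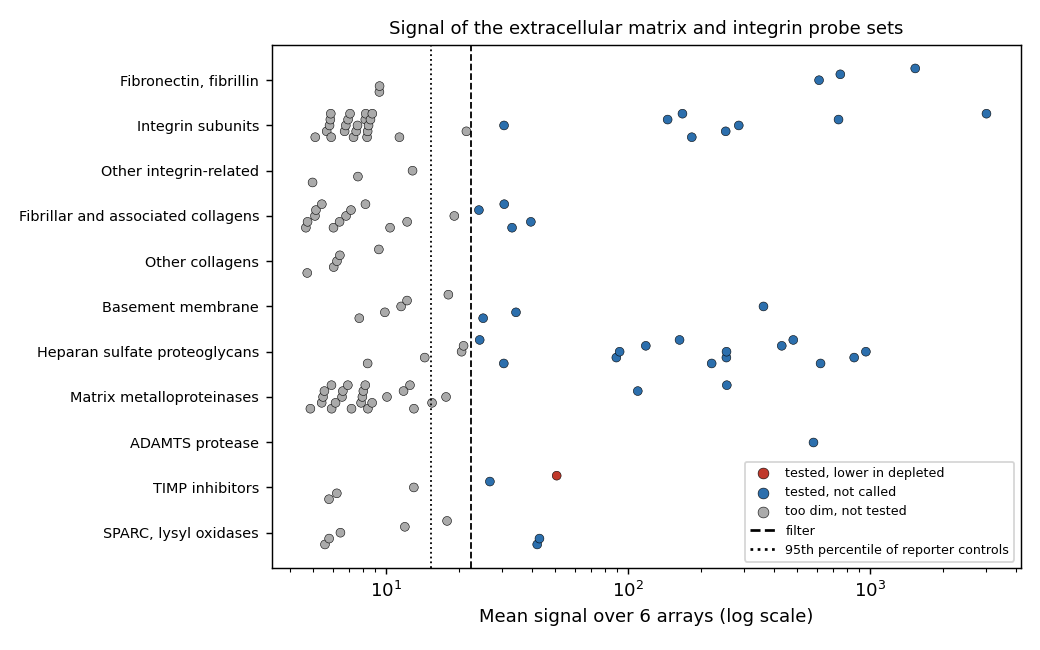
Mean signal over 6 arrays (horizontal axis, log scale) of each of the 124 member probe sets, sorted by role. Grey points fell under the filter (dashed line, 22.3), blue points were tested and not called, and the red point is timp-1.L. Most collagen and most integrin probe sets lie to the left of the filter, while most of those in the fibronectin and proteoglycan rows lie to its right.

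Most collagen probe sets were dim. The collagens had 28 probe sets for 18 genes, with mean signals from 4.65 to 39.6, and 20 of the 28 lay under the 95th percentile of the reporter controls. Col2a1.L, the main collagen of the notochord sheath and cartilage, read 4.68, 5.08 and 5.60 in control and 5.53, 4.80 and 4.77 in depleted arrays, all below the reporter percentile. The 5 probe sets of col6a1, col6a2 and col8a1 had mean signals of at most 9.32, and none was tested. Col1a1.S, a chain of the main collagen of skin and bone, reached 12.2 on the brighter of its probe sets. Sparc.L and sparc.S encode a matrix glycoprotein that binds collagen, and their mean signals were 5.81 and 6.47. For these genes no difference between the groups was detectable at this signal, which says nothing of its absence.

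Metalloproteinases were mostly dim too. Of 25 probe sets for 18 mmp genes, 21 lay under the reporter percentile and 2 were tested. Mmp14.L, a membrane-bound protease that cuts collagen and activates other metalloproteinases, had a mean signal of 13.0 on its brighter probe set. Of 30 probe sets for 17 integrin subunit genes, 21 lay under the percentile and 8, for 5 genes, were tested. Of the heparan sulfate proteoglycans, 14 of 18 probe sets were tested, for 6 of 7 genes, and of fibronectin and fibrillin 3 of 5. Without the filter, 0 of the 85 dim members passed the adjusted threshold in limma, and 5 had an unadjusted p under 0.05. The share of all dim probe sets under that fit is not given here, so these counts are not compared with the array.

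Among the 39 tested probe sets, 1 was lower and 0 were higher in the depleted arrays at an adjusted p under 0.05. Of all 19484 tested probe sets, 1289 (6.62%) passed that threshold, 585 higher (3.00%) and 704 lower (3.61%). At an unadjusted p under 0.05 there were 2 lower and 1 higher members, together 7.69% against 19.0% of all. A test that used each probe set's own variance alone called 0 members. It called far fewer probe sets of the whole array than limma did (counts in the last section). Its counts of 0 here and below therefore say little about these genes. The 3 depleted signals lay below all 3 control signals for 3 members (7.69%), against 12.8% of all probe sets. They lay above all 3 control signals for 1 member (2.56%), against 11.9% of all. Each of these member shares was below that of the whole array, and the differences were not tested.

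The median size of the change was 0.09 on the log2 scale for members and 0.10 for all probe sets. The signed median was -0.07 for members and 0.00 for all, and 26 of the 39 members (66.7%) had a negative change, against 49.9% of all. Of the 26 tested genes, 9 had several tested probe sets, among the negative and the positive changes alike. Only 1 of the 26 negative probe sets passed the test. The 95% interval of the change stayed within 1.5-fold for 34 of the 39 probe sets and within 2-fold for all 39. Under this fit, the intervals bound the change in signal of most tested probe sets. They rest on a batch-to-batch spread that may be technical.

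**Figure D2:**
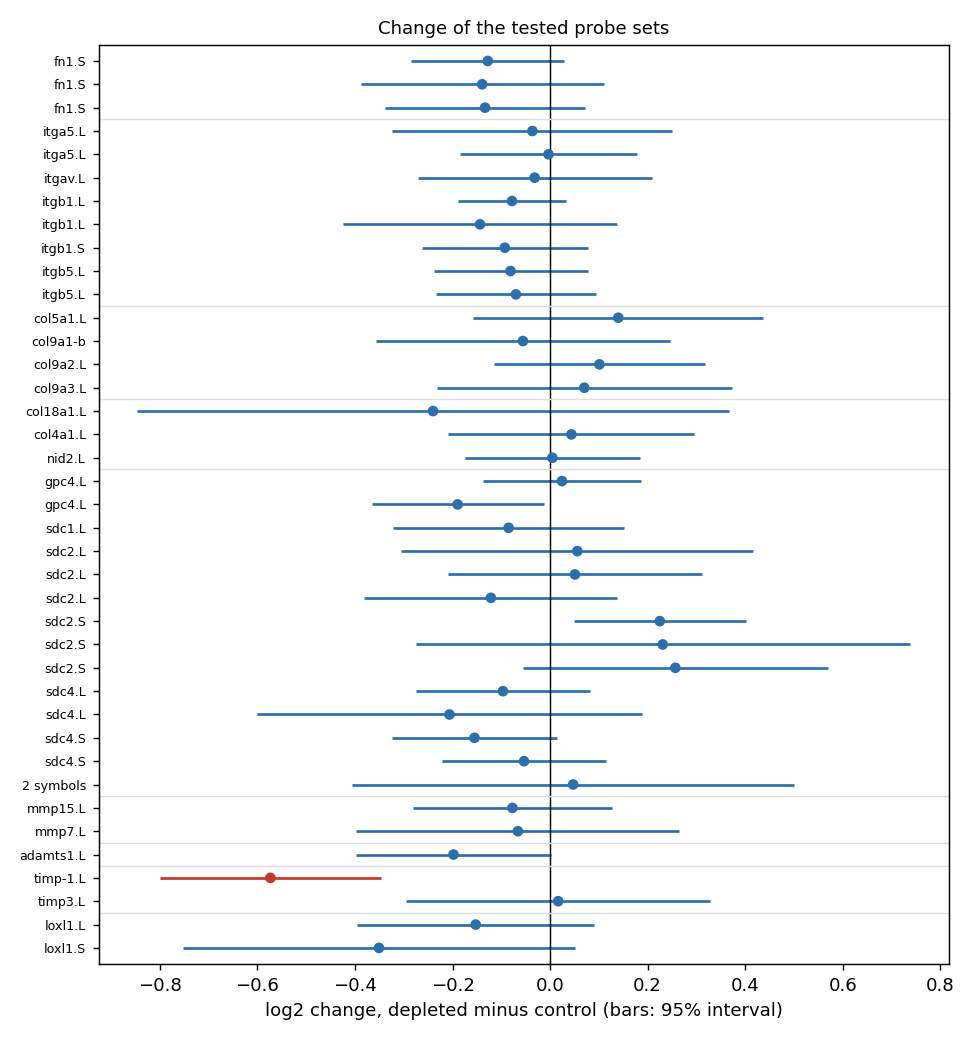
Log2 change (depleted minus control) of the 39 tested probe sets with the 95% interval from limma, grouped by role. Only the red interval, timp-1.L, passed the adjusted threshold, and the intervals of fibronectin and the integrin subunits all include 0.

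The 1 called member was timp-1.L (probe set Xl2.55631.1.S1_at), a tissue inhibitor of metalloproteinases. Its signals were 59.5, 64.6 and 57.4 in control and 38.9, 44.7 and 38.6 in depleted arrays. All 3 depleted arrays read below all 3 control arrays. The means were 60.5 ± 3.73 and 40.7 ± 3.46 (SD, n = 3 each). The gene fell by 0.57 on the log2 scale (SE 0.10, 95% interval -0.80 to -0.35), which is 1.49-fold lower, with an adjusted p of 0.0086 in limma. The call was lost without control array 2 (limma adjusted p 0.056) and with its own variance alone (limma adjusted p 0.090), while the change stayed between -0.66 and -0.43 over all 14 alternatives that gave a value.

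Of the other inhibitors only timp3.L was bright enough to test, and it was not called. Timp3.L, which also inhibits membrane proteases of the ADAM family, read 27.7, 24.5 and 27.4 in control and 31.1, 22.0 and 28.1 in depleted arrays. Its groups overlapped throughout (log2 change 0.02, 95% interval -0.30 to 0.33, limma adjusted p 0.971). Timp2.L and timp2.S were dim, with mean signals of 5.80 and 6.25. The difference between timp-1.L and the other inhibitors was not tested.

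Of the proteases that TIMP proteins act on, those bright enough to test showed no called change. Of the 25 mmp probe sets, 23 were not tested. Mmp15.L, a membrane-type metalloproteinase, read 252, 243 and 293 in control and 262, 253 and 229 in depleted arrays, and the groups overlapped (log2 change -0.08, SE 0.09, limma adjusted p 0.725). Mmp7.L, matrilysin, read 131, 122 and 85.4 in control and 101, 108 and 108 in depleted arrays, so its control arrays held both the highest and the lowest signal (log2 change -0.07, SE 0.15, limma adjusted p 0.868). Adamts1.L, a secreted protease that cuts large proteoglycans, read 577, 633 and 639 in control and 479, 602 and 537 in depleted arrays. Depleted array 2 lay above control array 1, so the groups overlapped by 1 array. The means were 616 ± 34.3 and 539 ± 61.5, a log2 change of -0.20 (SE 0.09, 95% interval -0.40 to 0.00, limma adjusted p 0.266), which did not pass the test.

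Fibronectin was measured by 3 tested probe sets of fn1.S, and none was called. The first (Xl2.2243.1.S1_a_at) read 1472, 1567 and 1770 in control and 1456, 1477 and 1456 in depleted arrays, with means of 1603 ± 152 and 1463 ± 12.52. Only depleted array 2 exceeded the lowest control array, and the log2 change was -0.13 (95% interval -0.28 to 0.03, limma adjusted p 0.374). The second read 681, 776 and 911 against 635, 749 and 758, and the third 565, 649 and 715 against 545, 620 and 589. In both, depleted array 1 was the lowest of all 6 and control array 3 the highest. Their changes were -0.14 and -0.13, with limma adjusted p-values of 0.566 and 0.492. In all 3 probe sets control array 1 was the lowest and control array 3 the highest control array. Another fn1.S probe set (mean 9.37) and fbn3.L, a fibrillin of elastic microfibrils (mean 9.38), were too dim to test.

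The integrin subunits had 8 tested probe sets and 0 calls in limma, also at an unadjusted p under 0.05 and with own variance alone. All 8 changes were negative, with a median of -0.07, but 1 was positive under quantile normalization and 2 under array weights. Itgb1.L, the beta subunit that pairs with most alpha subunits of this stage, read 2980, 3065 and 3260 in control and 2882, 2937 and 2989 in depleted arrays. Only depleted array 3 reached above a control array, by a small margin. The means were 3102 ± 143 and 2936 ± 53.6, a log2 change of -0.08 (95% interval -0.19 to 0.03, limma adjusted p 0.452). A dimmer itgb1.L probe set read 275, 304 and 219 against 220, 231 and 268, with overlapping groups (log2 change -0.14, limma adjusted p 0.607). Its homeolog itgb1.S read 797, 728 and 761 in control and 648, 730 and 770 in depleted arrays, and only depleted array 1 lay below the control range (log2 change -0.09, limma adjusted p 0.578).

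Itga5.L, the alpha subunit of the fibronectin receptor, had 2 tested probe sets. One read 155, 179 and 224 in control and 196, 173 and 170 in depleted arrays (log2 change -0.04, limma adjusted p 0.921), and the other 154, 144 and 139 against 143, 138 and 154 (log2 change 0.00, limma adjusted p 0.989). In both, the depleted arrays fell in or near the control range. The homeolog itga5.S was dim, with a mean of 5.92. Itgb5.L, which pairs with the alpha-v subunit, read 284, 295 and 304 in control and 263, 290 and 281 in depleted arrays, with only depleted array 2 inside the control range (log2 change -0.08, SE 0.07, limma adjusted p 0.605). Itgav.L, the alpha-v subunit itself, read 29.5, 30.7 and 32.7 against 29.4, 33.5 and 28.1, and the depleted arrays spanned the control range (log2 change -0.03, limma adjusted p 0.917). The alpha subunit gene itga3.L missed the filter with a mean of 21.4, and the itga6.L probe sets read at most 8.76 on average.

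**Figure D3:**
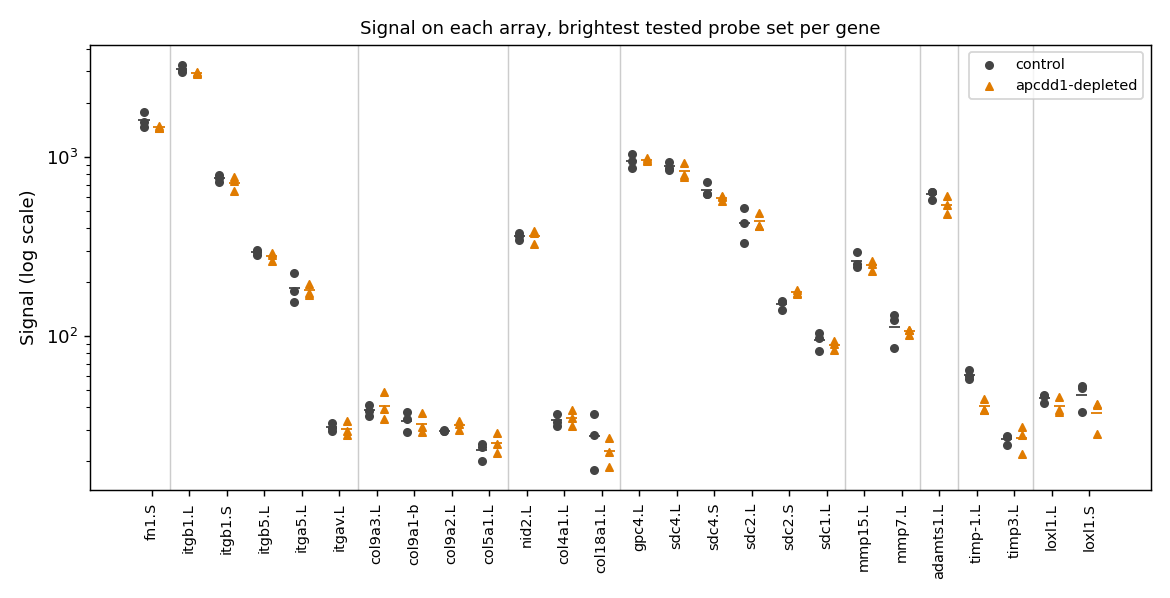
Signal on each of the 3 control (grey circles) and 3 depleted (orange triangles) arrays for the brightest tested probe set of each of the 26 tested genes, on a log axis with short lines at the group means. The circles and triangles of fn1.S, itgb1.L and gpc4.L lie at nearly the same height, while those of timp-1.L are apart. Small shifts, such as the lower depleted signals of fn1.S and itgb1.L, are hard to see on this axis.

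Heparan sulfate proteoglycans had 14 tested probe sets, 7 with a negative and 7 with a positive change, and 0 calls in limma with a smallest adjusted p of 0.144. Most of the positive changes were on probe sets of sdc2.L and sdc2.S, while all tested probe sets of sdc1.L, sdc4.L and sdc4.S had negative changes. At an unadjusted p under 0.05 there was 1 higher and 1 lower, and own variance alone called 0. Gpc4.L is a glypican that convergent extension in Xenopus requires. Its brighter probe set (Xl2.4720.1.S1_at) read 1039, 951 and 865 in control and 982, 961 and 954 in depleted arrays. The depleted arrays lay inside the control range, with means of 952 ± 86.8 and 966 ± 14.9 (log2 change 0.02, 95% interval -0.14 to 0.19, limma adjusted p 0.904). The other (Xl2.7830.3.A1_a_at) read 258, 285 and 270 against 237, 254 and 222, and all its depleted arrays were below all control arrays. Its change was -0.19 (95% interval -0.37 to -0.01), with an unadjusted p of 0.0375 and a limma adjusted p of 0.225. The probe sets of gpc4.L thus differed in sign, and neither passed the test.

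The syndecans are transmembrane proteoglycans, and sdc4 acts together with integrins at fibronectin contacts. Sdc4.L read 942, 868 and 846 in control and 795, 922 and 773 in depleted arrays, with depleted array 2 inside the control range (log2 change -0.10, limma adjusted p 0.580). Sdc4.S read 621, 727 and 623 in control and 603, 569 and 594 in depleted arrays. All depleted arrays lay below all control arrays, with means of 657 ± 60.9 and 589 ± 17.5. The log2 change of -0.16 (95% interval -0.32 to 0.01) did not pass the test in limma (adjusted p 0.310), and the second sdc4.S probe set had a change of -0.05 with overlapping groups. Sdc1.L read 82.5, 98.1 and 104 against 93.7, 90.4 and 83.5, and the depleted arrays stayed inside the control range (log2 change -0.09, limma adjusted p 0.742).

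Sdc2 is the syndecan best known in Xenopus for left-right patterning from the ectoderm. Of the 39 tested probe sets, 1 had all depleted signals above all control signals, and it measured sdc2.S. That probe set of sdc2.S (Xl2.41926.1.A1_at) read 157, 154 and 139 in control and 173, 181 and 172 in depleted arrays. Its means were 150 ± 9.78 and 175 ± 5.01, a log2 change of 0.23 (95% interval 0.05 to 0.40) with an unadjusted p of 0.018 and a limma adjusted p of 0.144. The other sdc2.S probe sets had changes of 0.23 and 0.26, also uncalled. For the first of these the control arrays read 117, 74.8 and 59.8 and the depleted arrays 92.0, 97.1 and 94.8. Without control array 1 its change became 0.50 with a limma adjusted p of 0.039. Over the 14 alternatives that gave a value its change ran from 0.015 to 0.50, and only that 1 gave a call.

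The control arrays also differed among themselves on the brighter probe sets of the .L homeolog. The brightest of these read 521, 425 and 330 in control and 486, 412 and 409 in depleted arrays, means of 425 ± 95.4 and 436 ± 43.7. Control array 1 was the highest and control array 3 the lowest of all 6, so the depleted arrays lay inside the control range (log2 change 0.06, 95% interval -0.30 to 0.42, limma adjusted p 0.899). The second read 249, 220 and 184 against 249, 213 and 211 (log2 change 0.05, limma adjusted p 0.872), and the third 25.4, 25.2 and 25.2 against 20.2, 24.3 and 25.6 (log2 change -0.12, limma adjusted p 0.647). On that last, dim probe set the control arrays were nearly equal and the depleted arrays more spread. On a probe set shared by 2 symbols, the highest control signal was 1.80 times the lowest, against 1.06 times in the depleted arrays (615, 480 and 343 against 501, 471 and 472). Over all tested members, the median of that ratio was 1.17 in each group. Control array 3 was the highest control array for fn1.S and the lowest for the brighter sdc2.L probe sets. The cause of this spread was not tested.

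**Figure D4:**
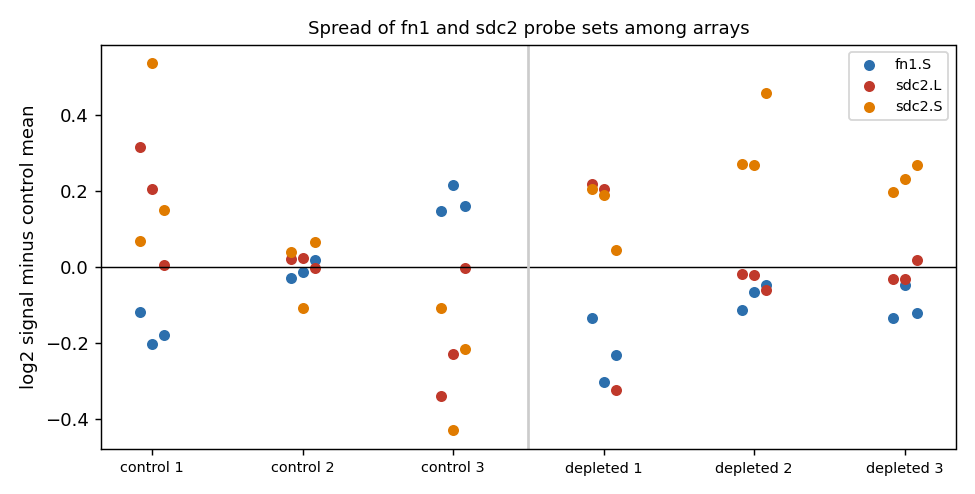
Log2 signal of each tested fn1.S, sdc2.L and sdc2.S probe set on the 6 arrays, minus that probe set's own mean over the control arrays. Control array 3 is the highest control array for fn1.S and the lowest for most sdc2 probe sets. The depleted arrays lie closer together for each fn1.S probe set, but not for the dimmest sdc2.L and sdc2.S probe sets.

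Of the basement membrane genes, nid2.L, which links laminin to collagen IV, read 345, 377 and 361 in control and 328, 384 and 377 in depleted arrays. The groups overlapped, with means of 361 ± 15.8 and 363 ± 30.7 (log2 change 0.00, 95% interval -0.17 to 0.18, limma adjusted p 0.985). Col4a1.L, a chain of the collagen network of basement membranes, read 31.6, 33.0 and 36.8 against 38.4, 34.8 and 31.5, also overlapping (log2 change 0.04, limma adjusted p 0.887). Col18a1.L, whose product carries heparan sulfate and releases endostatin, read 17.9, 28.2 and 36.8 against 22.5, 27.0 and 18.5. Its control arrays spanned all depleted arrays, and the 95% interval of -0.85 to 0.37 was the widest among the collagens (log2 change -0.24, limma adjusted p 0.699). Laminin was represented by lamb2.L alone, with a mean of 9.87, which was not tested.

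The 4 tested fibrillar and associated collagens lay close above the filter and gave 0 calls in limma, 0 at an unadjusted p under 0.05 and 0 with own variance alone. Col9a3.L, a chain of the cartilage collagen that coats collagen II fibrils, read 38.1, 41.2 and 36.0 in control and 48.8, 39.0 and 34.4 in depleted arrays, which spanned the control range. Col9a1-b and col9a2.L, the other chains of that collagen, had log2 changes of -0.06 and 0.10, and col5a1.L, which sets the width of collagen fibrils, of 0.14. The smallest limma adjusted p among these 4 was 0.644. The lysyl oxidase-like enzyme loxl1, which cross-links elastin, read 37.6, 51.1 and 52.5 in control and 41.5, 28.4 and 41.2 in depleted arrays for loxl1.S. Control array 1 lay among the depleted arrays (log2 change -0.35, 95% interval -0.75 to 0.05, limma adjusted p 0.338). Loxl1.L had a change of -0.15 with an adjusted p of 0.512 in limma.

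Where both homeologs of a gene were tested, the change of .L minus that of .S was compared in one limma fit over 1385 pairs of the array, of which 167 (12.1%) changed unequally. Of the members, 4 genes had such a pair, and 0 of the 4 were called, also at an unadjusted p under 0.05 and with own variance alone. The shares of all pairs at those settings are not given here. The .L minus .S difference was 0.01 for itgb1 (95% interval -0.19 to 0.22), 0.06 for sdc4 (-0.20 to 0.32), -0.17 for sdc2 (-0.47 to 0.13) and 0.20 for loxl1 (-0.13 to 0.53). The intervals for itgb1 were the narrowest of these, and none shows that the copies act alike.

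Genes that act on these proteins but fall outside the symbol rule were taken from 4 lists, with 116 genes found on the array and 73 tested, each by its brightest probe set. In limma, 3 were lower and 0 higher (4.11% called, against 6.62% of all probe sets), and at an unadjusted p under 0.05 there were 6 lower and 3 higher, against 19.0% of all. The depleted signals lay below all control signals for 13 of the 73 and above them for 5, against 12.8% and 11.9% of all probe sets. These differences from the array were not tested. A change was negative for 39 of the 73 (53.4%), with a median of -0.01. Own variance alone called 1, ppib.S. The folding and processing of collagen had 1 lower of 22 tested genes, the adhesion complex behind integrins 1 of 22, other matrix genes 1 of 7, and the making of heparan sulfate 0 of 22 (2 lower and 1 higher at an unadjusted p under 0.05).

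Ppib.S encodes cyclophilin B, an enzyme that helps procollagen fold in the endoplasmic reticulum. It read 1501, 1407 and 1458 in control and 1162, 1152 and 1139 in depleted arrays. The groups were far apart relative to their spread, with means of 1455 ± 47.3 and 1151 ± 11.8, and the gene fell by 0.34 on the log2 scale (SE 0.05, limma adjusted p 0.0045). Ppib.L read 1723, 1625 and 1702 against 1810, 1644 and 1668, with overlapping groups (log2 change 0.02, limma adjusted p 0.901). The difference between these homeologs was itself called (0.36, 95% interval 0.21 to 0.50, limma adjusted p 0.0096), and missed the threshold only without control array 2 (0.053). Ppib.S was called under all 15 alternatives.

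Lims1.L encodes PINCH, the adaptor that binds integrin-linked kinase at adhesion sites. It read 438, 477 and 485 in control and 325, 378 and 362 in depleted arrays, all depleted arrays lying below all control arrays. The means were 467 ± 25.2 and 355 ± 27.3, and the gene fell by 0.40 on the log2 scale (SE 0.08, limma adjusted p 0.0154). Lims1.S read 445, 462 and 447 against 439, 439 and 434, a log2 change of -0.05 (limma adjusted p 0.756). Its depleted arrays also lay below all control arrays, by a small margin. The lims1.L call was lost without control array 2 (limma adjusted p 0.085), without depleted array 3 (0.058) and with own variance alone (0.140), and the difference between the homeologs was called at -0.35 (limma adjusted p 0.025). That call was lost under 6 of 15 alternatives, among them without control arrays 2 or 3 or depleted arrays 1 or 3. In all, 4 of the 19 related pairs were called, against 12.1% of all pairs. The others were hs3st1, a heparan sulfate sulfotransferase (0.27, limma adjusted p 0.034), and serpinh1, the collagen chaperone HSP47 (-0.26, limma adjusted p 0.0497). Both of these calls were lost without any 1 of the 6 arrays, with no filter, with a replicate block and with own variance alone. That of serpinh1 was also lost under quantile normalization, array weights and eBayes without trend and robust. The 3 tested serpinh1.L probe sets differed in sign. Of PINCH's partners, ilk.S had a change of 0.08 and parvb.S of 0.11, with limma adjusted p-values of 0.683 and 0.383. For parvb.S all depleted arrays lay above all control arrays. Rsu1.L, of the same list, had a change of -0.07 with overlapping groups (limma adjusted p 0.822).

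Has2.S encodes one of the enzymes that make hyaluronan, a large polysaccharide of the matrix. It read 2307, 2163 and 2102 in control and 1770, 1878 and 1923 in depleted arrays. All depleted arrays lay below all control arrays, with means of 2190 ± 105 and 1857 ± 78.8, and the gene fell by 0.24 on the log2 scale (SE 0.06, limma adjusted p 0.037). That call held under only 6 of 15 alternatives, with limma adjusted p-values from 0.0050 to 0.16, and was lost without any 1 of control arrays 1 and 2 and depleted arrays 1, 2 and 3 (0.078 to 0.115). Has1.S, another hyaluronan synthase, read 4226, 5231 and 4866 against 4388, 4813 and 4529, with the depleted arrays inside the control range (log2 change -0.06, limma adjusted p 0.761), and has3.S was dim. Of the enzymes that edit heparan sulfate, sulf2.L, which removes sulfate groups outside the cell, read 85.7, 78.8 and 78.7 against 60.2, 69.8 and 61.8. Its groups did not overlap, but its log2 change of -0.35 missed the threshold (limma adjusted p 0.063).

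**Figure D5:**
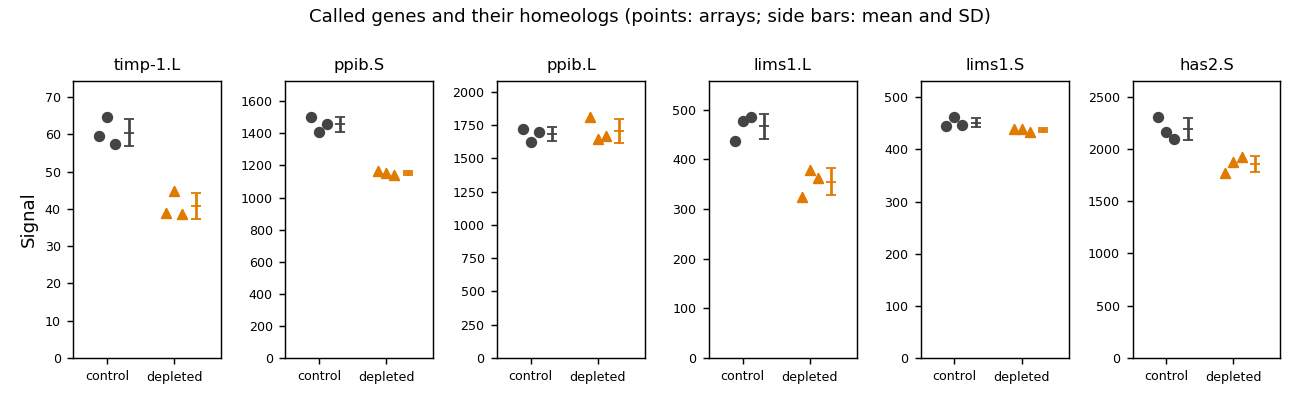
Signal on each array (linear axes from 0) of the called gene timp-1.L and of the called related genes ppib.S, lims1.L and has2.S, with the homeologs ppib.L and lims1.S. Points are arrays and the side bars are means with SD (n = 3); the depleted points lie below the control points in each called gene, overlap them for ppib.L, and lie just under them for lims1.S.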

How the data were processed

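Affymetrix signal intensities on a linear scale were used as deposited by the authors in the array table. MAS5 is named, without a version, in the submitters' processing notes, and how the values were scaled is not given in the sources used here. The 160 control probe sets (96 with the AFFX prefix and 64 for reporter genes) were left out. A floor of 1 was set on the signals and changed 0 of them. No scaling was added before taking log2. Probe sets whose mean log2 signal lay below the 40th percentile (4.48) were not tested. A two-sided comparison of 3 depleted with 3 control arrays was fitted by lmFit and moderated by eBayes (trend = TRUE, robust = TRUE) in limma 3.58.1 under R 4.3.3. P-values were adjusted by the Benjamini-Hochberg method over all 19484 tested probe sets, with 0.05 as the threshold.

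The rule read the platform symbol. Genes were then named by RefSeq assembly Xenopus_laevis_v10.1 where their gene number was found there. This was so for 119 of the 120 member probe sets with 1 symbol. The platform symbol was kept elsewhere and where RefSeq gave only a LOC number. Every called member was named, with the 4 genes of highest mean signal per role, their homeologs and the called genes of the related lists. Of these, col4a2.L, col18a1.S, mmp13l.L, mmp13l.S, loxl2.L, loxl3.S, itgb1bp2.L and itgbl1.L were too dim to test and are named only here. The rule took itgb1bp2.L and itgbl1.L by symbol, and they were not counted as integrin subunits. Itgav.L, itga3.L, itga6.L, sdc1.L, col2a1.L, col1a1.S, sparc, lamb2.L, hs3st1, serpinh1, has1.S and has3.S were named in addition, after their values were seen. So were the marker genes, ilk.S, parvb.S, rsu1.L and sulf2.L. Members and lists were chosen with earlier results of these data known. The number of arrays limits the precision.

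Array numbers are shared between the groups. Deviations from the group means correlated by 0.05, 0.02 and -0.27 for arrays of the same number. Arrays of different number were not compared in this way, so these values do not settle whether the numbers mark pairs. The main fit did not use the numbers as pairs. The ratio of 3′ to 5′ gapdh signal was 1.75 to 1.81 in control and 1.82 to 1.95 in depleted arrays, and its part in the results was not tested. Alternatives were median centring, quantile normalization, a pseudocount of 16, other filters, a replicate block, array weights, eBayes without trend and robust, own variance alone, and leaving out each array. Own variance alone was an ordinary t-test on each probe set, without eBayes.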

Additional observations from a re-analysis of the deposited data

How the results depend on the processing

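Over 15 alternatives, 572 values were obtained for 39 named probe sets. These were members and the called related genes ppib.S, lims1.L and has2.S, and not the same 39 as the tested members. Of the values, 521 kept their direction and their side of the threshold, 31 changed sign, 14 lost a call and 6 gained one. Calls held under 12 of 14 alternatives for timp-1.L, 12 of 15 for lims1.L, 6 of 15 for has2.S and all 15 for ppib.S. Median centring, quantile normalization, a pseudocount of 16 and eBayes without trend and robust kept 1 member lower and 0 higher. Array weights gave 1 member higher and 5 lower, 2046 probe sets of the array higher and 2403 lower, and 5 related genes higher and 11 lower. The 5 members that gained a call there were sdc2.S (higher), adamts1.L, loxl1.S, sdc4.S and gpc4.L. Array weights also turned the change of sdc2.L to -0.00076 and -0.0054, col9a3.L to -0.10, itga5.L (Xl2.3574.1.S1_at) to 0.028, itgb1.S to 0.0026 and nid2.L to -0.018, and quantile normalization turned that itga5.L probe set to 0.00052. A filter at the 60th percentile gave 0 members lower, since it removed timp-1.L. Own variance alone gave 0 members lower, 107 probe sets higher and 89 lower, and 1 related gene lower. With no filter the member median was -0.012. Leaving out each array in turn gave 0 to 1 members higher, 0 to 1 lower, 305 to 610 probe sets higher and 364 to 820 lower (fewest without control array 2), a member median of -0.11 to -0.042, 0 to 1 related genes higher and 1 to 3 lower. Over those fits the change crossed 0 for sdc2.L (-0.11 to 0.21 and -0.064 to 0.15), itga5.L (-0.16 to 0.11 and -0.047 to 0.037), col9a3.L (-0.068 to 0.18), col9a1-b (-0.16 to 0.032), mmp7.L (-0.25 to 0.054), timp3.L (-0.092 to 0.16), col4a1.L (-0.028 to 0.11), gpc4.L (-0.042 to 0.090), nid2.L (-0.038 to 0.076) and mmp15.L (-0.13 to 0.0043). Member homeolog pairs gave 0 calls under every alternative run. With the array number as a replicate block, 1 member was lower (timp-1.L, limma adjusted p 0.0136), and 480 probe sets of the array were higher and 621 lower. The causes of these differences were not tested. Signals near the reporter controls limit what can be said of the dim genes, and 3 arrays per group limit the rest.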
